A study of Rattus norvegicus with 40 samples.

Results

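The change of gene expression that spinal nerve ligation (SNL) adds to that of sham surgery was measured in the L4 dorsal root ganglion (DRG), the ganglion next to the injured one. Of the 40 arrays of the series, the 20 labelled as L4 DRG were used, 1 array per DRG, in 4 groups of 5. SNL rats gave an ipsilateral and a contralateral L4 DRG each, and sham rats gave the same pair of DRGs. All were male Sprague-Dawley rats taken 4 weeks after surgery on the left side. In SNL rats the L5 spinal nerve was tied tightly with silk distal to its DRG. In sham rats the nerve was exposed in the same operation but not tied. The L4 spinal nerve was not ligated in either cohort, so the L4 DRG holds neurons whose axons were not tied, beside those of the injured L5 nerve. Whether the surgery injured some L4 axons was not tested.

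A DRG holds the cell bodies of the sensory neurons of a spinal segment, each wrapped in satellite glial cells, together with Schwann cells, resident macrophages, fibroblasts and small vessels. After the L5 nerve is tied, its severed fibres degenerate in the sciatic nerve next to L4 fibres that were not tied, and the L4 DRG is studied because its neurons still carry signals from the skin and muscle of the paw. Surgery on the back also wounds muscle, fascia and bone close to the ganglion, which is what the sham cohort controls for.

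The quantity reported is a difference of differences. For each probeset the ipsilateral minus contralateral difference of SNL rats was taken, and the same difference of sham rats was subtracted from it, on log2(signal + 16), where the signal is the linear MAS 5 intensity of the array. A contrast above 0 thus means that the ratio of the sides was larger in SNL than in sham rats. A gene is said to rise or fall relative to sham surgery where this contrast is above or below 0 with a limma adjusted p under 0.05 over all 31042 probesets tested, and a side difference or contrast is always a log2 value. Per-array signals are listed in the order of rats 4, 8, 9, 18 and 48 for SNL and rats 1, 14, 17, 22 and 23 for sham, and the paired DRGs of a rat stand at the same place of their lists. In a whole ganglion, fewer cells of a type and less RNA per cell cannot be told apart.

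The label of the tissue was checked against marker genes. All 4 groups held the neuronal markers Prph (group means 1569.6 to 2302), Nefh (2041 to 3499) and Calca (2351 to 4969.6), the satellite glial markers Fabp7 and Glul, and the Schwann cell markers Pmp22, Mbp and Prx. The transcription factors Isl1 and Pou4f1 had group means of 33.5 to 68.1, and Kcnj10, a potassium channel of satellite glia, had group means of 0.946 to 5.38. Mag, a further Schwann cell marker, was low as well, with group means of at most 38.2.

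The 4 groups differed in properties of the arrays before any gene was compared. The GAPDH control probesets give a 3' over 5' log2 ratio, which rises as RNA is shortened from its 5' end and averaged 2.35 in SNL ipsilateral, 1.40 in SNL contralateral, 1.72 in sham ipsilateral and 1.29 in sham contralateral DRGs. The contrast of this ratio was 0.52 (exact permutation test of the 5 SNL against the 5 sham within-rat differences, two-sided, p = 0.00794, the smallest these samples can give). The same ratio for actin averaged 4.79 in SNL ipsilateral, 4.02 in SNL contralateral, 4.57 in sham ipsilateral and 4.79 in sham contralateral DRGs, a contrast of 0.99 (exact p = 0.00794). The median signal of an array was 54.4 in SNL ipsilateral, 49.4 in SNL contralateral, 37.3 in sham ipsilateral and 31.7 in sham contralateral DRGs, and the mean log2 signal of the bacterial spike probesets was 11.3 in SNL ipsilateral, 10.5 in SNL contralateral, 9.70 in sham ipsilateral and 8.64 in sham contralateral DRGs. The array numbers in the labels run group by group, 1 to 5 for SNL ipsilateral, 6 to 10 for SNL contralateral, 13 to 17 for sham ipsilateral and 18 to 22 for sham contralateral DRGs, so that array order and group cannot be told apart. The part of these differences in the contrasts below was not tested, beyond a fit that holds the GAPDH ratio as a covariate. The counts of that fit are given for most of the lists whose counts it moves by over 1.5 times.

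**Figure D1:**
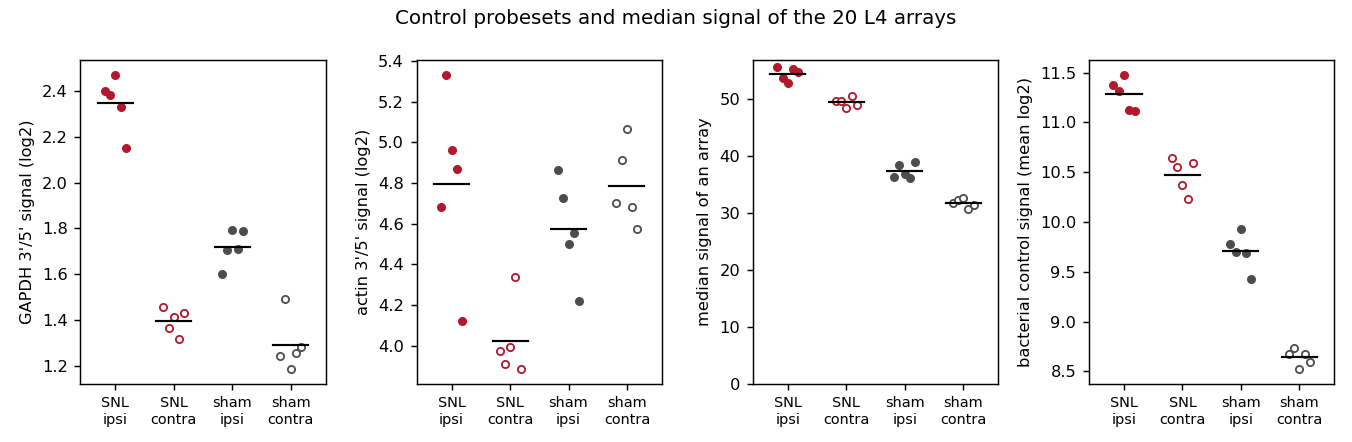
GAPDH and actin 3' to 5' log2 ratios and median signal of each of the 20 L4 arrays, by group, SNL before sham and ipsilateral before contralateral; points are single DRGs and bars the group means. The 5 SNL ipsilateral arrays have the highest GAPDH ratios, 2.15 to 2.47, above the 1.60 to 1.79 of sham ipsilateral DRGs.

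The contralateral DRGs of the cohorts, which received no surgery on their own side, also differed: 18226 probesets, or 58.7%, passed the test between contralateral L4 DRGs of SNL and of sham rats. The direction of this difference depended on the scaling, with 12495 of them higher in SNL rats on the signals as deposited, 6398 of 19034 after scaling to equal medians and 6680 of 14121 after quantile normalization. A contralateral level that differs between cohorts enters the contrast with the opposite sign. Of the probesets whose contrast was called higher, 65.3% had a contralateral difference called in the opposite direction, and of those called lower, 58.6%. A cohort difference and a systemic effect of ligation on the contralateral side cannot be told apart.

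Relative to sham surgery, 4347 of 31042 probesets changed at L4 (14%), 1777 upward (5.72%) and 2570 downward (8.28%). Within SNL rats the sides differed for 8090 probesets (26.1%), and within sham rats for 5861 (18.9%), so that the sides differed in rats without ligation too. Among probesets called higher in the contrast, 967 rose in SNL rats and were not called in sham rats, 401 fell in sham rats and were not called in SNL rats, and 227 did both. Among those called lower, 1202 fell in SNL rats alone by the same test, 699 rose in sham rats alone and 254 did both, while 169 rose in both cohorts but less in SNL rats. After quantile normalization 3841 probesets were called, 1591 higher and 2250 lower, of which 2972 were also called the same way on the deposited signals. Scaling to equal medians turned the balance to 2638 higher and 1904 lower, so the excess of probesets that fell depends on the scaling. With the GAPDH ratio as a covariate 981 probesets passed, 221 higher and 760 lower, and 827 of them were among the 4347.

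**Figure D2:**
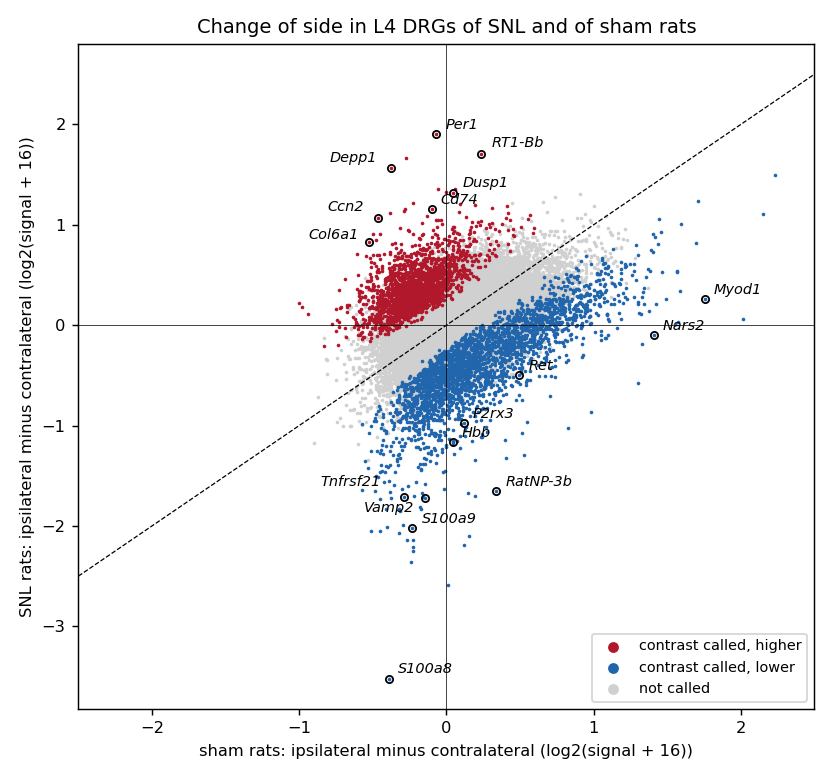
Side difference (ipsilateral minus contralateral, log2(signal + 16)) of each probeset in SNL rats (vertical axis) against that in sham rats (horizontal axis), with probesets called in the contrast in color. Among the genes labelled, S100a8 lies lowest, at -3.52 in SNL and -0.39 in sham rats, and Per1 highest, at 1.90 and -0.069.

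For single genes the brightest of its probesets was used, which gave 14217 genes. Of these, 1270 rose (8.93%) and 1099 fell (7.73%) relative to sham surgery, and in 1894 genes (13.3%) the 5 SNL and the 5 sham within-rat differences did not overlap. The shares of 8.93% higher and 7.73% lower are the background for the counts of gene lists below. The 24 genes with the largest contrasts that met the naming rule, 12 in each direction, all passed also after quantile normalization, after scaling to equal medians and with the rat as a block, and 18 of them passed with the GAPDH ratio as a covariate, all but Per1, Cfap100, Cdca7, Defa5, Myod1 and Actr2-ps1. In 20 of the 24 the contralateral DRGs of the cohorts differed in the opposite direction, beside 65.3% of all probesets called higher and 58.6% of those called lower. The contralateral levels are part of the contrast, with the opposite sign, so picking genes by its size favours this outcome. The exact permutation p over rats was 0.00794 for each of the 24, whose non-overlap was part of the rule.

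Genes switched on within minutes by growth factors, calcium or stress, the immediate early genes, are quiet in most resting tissue. Of 27 measured, 7 rose: the phosphatase Dusp1, which turns off MAP kinases, the RNA-binding protein Zfp36, which shortens the life of cytokine mRNAs, the transcription factors Klf2, Egr1, Egr2 and Nr4a1, and the matrix protein Ccn1. The other 20 did not pass, among them Fos at 0.0037 (adjusted p = 0.994) and Atf3 at 0.61 (adjusted p = 0.0831). The share called higher, 25.9%, stands beside 8.93% of all genes, the median contrast of the list was 0.20 against 0.037 over all genes, the background for the list medians given below, and 5 members passed with the GAPDH covariate. Promoter sequences are shown for 4 of these genes and for Srf and Ccn2, which rose relative to sham surgery as well and belong to the same responses, because such stimuli are known to act through this DNA.

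The 150 bases before the start of each gene are given from RefSeq on rat build GRCr8, 5' to 3' on the strand of the gene, with motif matches in capitals, none of which overlapped a match of another motif. The motifs were the CArG box bound by serum response factor (SRF), the cAMP response element TGACGTCA, and the TEAD motif ACATTCC or its complement GGAATGT. Egr2 (chr20:21054442-21054591, reverse strand), Zfp36 (chr1:92799109-92799258, reverse strand) and Srf (chr9:21923926-21924075, forward strand) hold CArG boxes, Dusp1 (chr10:17184703-17184852, forward strand) holds the cAMP element, and Ccn1 (chr2:237225690-237225839, reverse strand) and Ccn2 (chr1:22624615-22624764, reverse strand) hold the TEAD motif.
Egr2: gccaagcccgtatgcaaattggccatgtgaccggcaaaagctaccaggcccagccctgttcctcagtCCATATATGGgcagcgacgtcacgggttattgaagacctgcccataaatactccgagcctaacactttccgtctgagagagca
Zfp36: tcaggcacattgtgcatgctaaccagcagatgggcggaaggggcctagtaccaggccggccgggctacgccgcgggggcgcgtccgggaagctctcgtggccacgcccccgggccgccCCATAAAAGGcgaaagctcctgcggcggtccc
Srf: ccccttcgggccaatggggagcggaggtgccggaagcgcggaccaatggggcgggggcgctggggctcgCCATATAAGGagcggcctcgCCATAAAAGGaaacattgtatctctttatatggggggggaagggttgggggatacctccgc
Dusp1: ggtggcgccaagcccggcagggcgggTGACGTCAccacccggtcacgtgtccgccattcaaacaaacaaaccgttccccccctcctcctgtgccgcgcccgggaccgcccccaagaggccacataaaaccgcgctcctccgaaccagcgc
Ccn1: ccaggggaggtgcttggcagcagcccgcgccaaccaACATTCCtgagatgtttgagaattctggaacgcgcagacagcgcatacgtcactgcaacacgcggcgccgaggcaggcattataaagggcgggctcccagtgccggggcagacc
Ccn2: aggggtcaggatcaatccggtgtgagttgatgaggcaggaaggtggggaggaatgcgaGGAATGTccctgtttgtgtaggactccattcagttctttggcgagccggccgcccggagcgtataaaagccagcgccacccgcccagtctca

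The CArG box of Egr2 lay 83 bases before the start and that of Zfp36 32 bases before it, and Srf, which encodes the factor that binds the box, held a pair of them. Over the 250 bases before the start, searched on both strands, 1.5% of 33469 rat promoters held a CArG box, 1.59% the cAMP element and 3.52% the TEAD motif. Of the 7 immediate early genes that rose, 6 had a promoter entry, of which 3 held a CArG box, 1 the cAMP element and 2 the TEAD motif. Of the 20 that did not pass, 12 had an entry, of which 1 held a CArG box and 3 the cAMP element. The promoters printed were picked from genes that rose and each held a match, so they give no share of promoters with a motif. A match is a description of these letters and no measure of binding.

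Per1, a core repressor of the circadian clock that glucocorticoids and calcium also induce, had the largest positive contrast of the genes named. Its signals were 152, 129.6, 109.9, 116 and 96.3 in SNL ipsilateral DRGs, against 54.7, 7.54, 20.6, 31.3 and 5.80 in SNL contralateral DRGs, and 68.7, 56.97, 30.4, 80.8 and 75.1 in sham ipsilateral DRGs and 51.5, 58.9, 62.1, 74.6 and 73.9 in sham contralateral DRGs. Every SNL ipsilateral value was above every value of the other groups, while the SNL contralateral values lay below all sham contralateral values in rats 8, 9, 18 and 48. The contrast was 1.97 ± 0.33 (SE), a 3.92-fold larger side ratio (adjusted p = 0.000112), and the side difference was 1.90 in SNL rats and -0.069 in sham rats. With the GAPDH covariate it had adjusted p = 0.0918. Of the 18 clock genes measured, 4 rose and 2 fell (22.2% higher and 11.1% lower, beside 8.93% higher and 7.73% lower of all genes, list median 0.12), a count of 2 and 1 after quantile normalization, and the number that fell ranged from 0 to 2 with 1 array left out. With the rat as a block 4 rose and 1 fell. Per2, the partner repressor of Per1, had a contrast of 0.59 ± 0.16 (SE) (adjusted p = 0.0107), and Nr1d1, the nuclear receptor Rev-erb alpha, of 0.59 ± 0.18 (SE) (adjusted p = 0.026). Both calls were lost after quantile normalization (adjusted p = 0.0669 for Per2 and 0.207 for Nr1d1). Another, dimmer probeset of Per2 was not called (-0.43, adjusted p = 0.442). The call of Nr1d1 was lost without the sham contralateral array of rat 14 or 23 or the sham ipsilateral array of rat 14. The 6 calls of this list were lost with the GAPDH covariate.

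Dusp1 had signals of 957, 1281, 1406, 1154 and 1261 in SNL ipsilateral DRGs, against 512, 451, 502, 428 and 472 in SNL contralateral DRGs. Its sham values were 640.2, 611, 646, 617 and 493 in sham ipsilateral DRGs and 615, 554, 570.1, 597 and 562 in sham contralateral DRGs. All 5 SNL ipsilateral values were above those of the other 15 arrays, and the sham sides overlapped. The contrast was 1.27 ± 0.12 (SE) (adjusted p = 1.08e-08). Another, dimmer probeset of the gene was not called (-0.40, adjusted p = 0.398).

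Egr2, a zinc-finger factor that also drives myelin genes in Schwann cells, had signals of 782, 775, 774, 739 and 844 in SNL ipsilateral DRGs, against 374, 369.9, 377, 348 and 383 in SNL contralateral DRGs, and 696, 649.6, 714, 605 and 693 in sham ipsilateral DRGs and 655, 719.8, 675, 711 and 739 in sham contralateral DRGs. The 5 SNL contralateral DRGs stood apart below all other DRGs here. The contrast was 1.11 ± 0.077 (SE) (adjusted p = 1.03e-10), with a contralateral difference between cohorts of -0.89 (adjusted p = 3.73e-13). Zfp36 showed a change in both cohorts, 0.85 in SNL and -0.48 in sham rats, with signals of 153, 152, 119, 156 and 141 in SNL ipsilateral DRGs, against 66.8, 88.3, 61.3, 74.9 and 73.1 in SNL contralateral DRGs, and 57.6, 58.3, 77.1, 75.9 and 56.2 in sham ipsilateral DRGs and 94.9, 80.1, 93.3, 117 and 98.5 in sham contralateral DRGs. The sham ipsilateral values lay below all sham contralateral values, and the contrast was 1.33 ± 0.15 (SE) (adjusted p = 4.89e-07).

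Klf2, a factor best known from endothelium and quiescent lymphocytes, averaged 106 ± 13.9 in SNL ipsilateral and 31.99 ± 6.59 in SNL contralateral DRGs, and 48.6 ± 13.4 in sham ipsilateral and 45.2 ± 5.43 in sham contralateral DRGs (SD, n = 5 each). Its contrast was 1.29 ± 0.19 (SE) (adjusted p = 1.93e-05), and its 4 other probesets were not called. The CCN proteins are secreted regulators of matrix whose genes are classical targets of YAP and TEAD. Ccn1 had signals of 75.95, 67.5, 66.4, 41.2 and 48.7 in SNL ipsilateral DRGs, against 30.9, 26.8, 14.3, 26.3 and 17.8 in SNL contralateral DRGs, and 34.7, 29.8, 29.05, 27.4 and 43.8 in sham ipsilateral DRGs and 44.4, 28.99, 29.6, 30.4 and 48.9 in sham contralateral DRGs, a contrast of 1.04 ± 0.22 (SE) (adjusted p = 0.00178). Ccn2, also called connective tissue growth factor, had signals of 191, 225, 287, 248 and 273 in SNL ipsilateral DRGs, against 106, 114, 106, 111 and 102 in SNL contralateral DRGs, and 161, 141, 143, 155 and 151 in sham ipsilateral DRGs and 227, 211, 211, 211 and 209.9 in sham contralateral DRGs. For Ccn2 the sham ipsilateral DRGs were all below the sham contralateral DRGs while the SNL ipsilateral DRGs were all above the SNL contralateral DRGs, and the contrast was 1.53 ± 0.12 (SE) (adjusted p = 3.63e-10). The SNL ipsilateral values of Ccn1 were above all SNL contralateral ones and overlapped the sham values, whose sides overlapped too, with a side difference of -0.092.

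**Figure D3:**
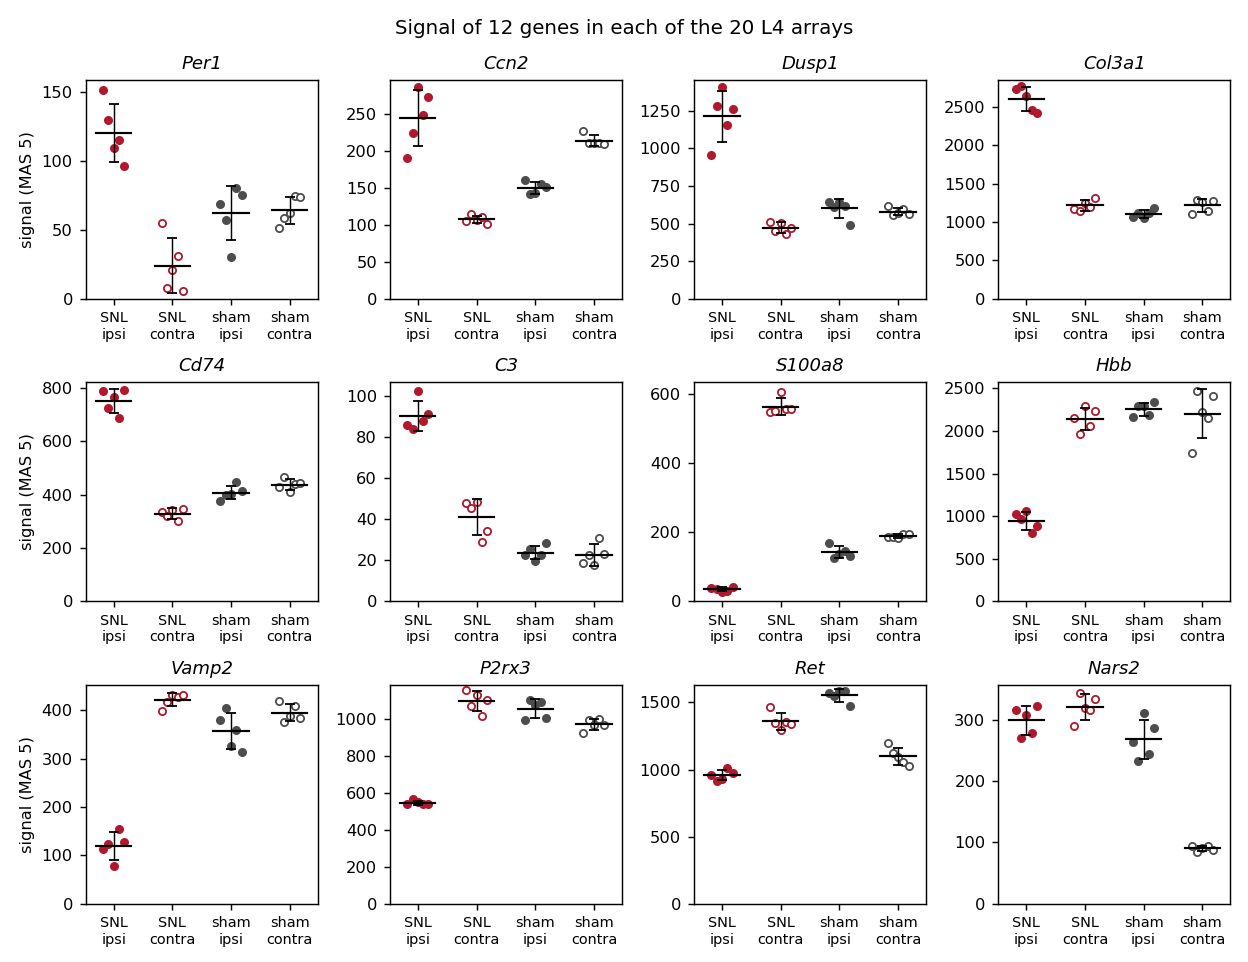
MAS 5 signal of 12 genes in each of the 20 L4 DRGs, SNL groups left of sham groups; points are single DRGs and bars the group means. Dusp1 is highest in the 5 SNL ipsilateral DRGs, 957 to 1406, and S100a8 highest in the 5 SNL contralateral DRGs, 548 to 605.

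Genes that respond to glucocorticoids or to FoxO factors rose more often than they fell, 8 against 2 of 19 measured (42.1% higher and 10.5% lower, beside 8.93% higher and 7.73% lower of all genes, list median 0.35), and 2 rose and 1 fell with the GAPDH covariate. After quantile normalization 7 rose and the lower calls were lost. The number that fell ranged from 1 to 3 with 1 array left out. Depp1, a FoxO target, lies outside this list and had signals of 85, 98.6, 85.1, 91.8 and 105 in SNL ipsilateral DRGs, against 6.26, 39.7, 17.6, 23.3 and 25 in SNL contralateral DRGs, and 39.2, 46.7, 28.3, 33.5 and 49.6 in sham ipsilateral DRGs and 47.3, 52.6, 56.1, 66.5 and 54.96 in sham contralateral DRGs. Its SNL ipsilateral values were above all others, its SNL contralateral values below all sham contralateral values, and the contrast was 1.94 ± 0.24 (SE) (adjusted p = 1.33e-06). Klf15, a glucocorticoid-induced factor of metabolism, had a contrast of 0.76 ± 0.15 (SE) (adjusted p = 0.000717), and Mt1, a metallothionein that binds zinc, of 0.72 ± 0.10 (SE) (adjusted p = 1.91e-05). For Sult1a1, a sulfotransferase of phenols, the contrast of 0.76 ± 0.12 (SE) came with a side difference of 0.029 in SNL rats and -0.73 in sham rats. The members that fell were Txnip (-0.53, adjusted p = 8.65e-05), an inhibitor of thioredoxin, and Foxo3 (-0.25, adjusted p = 0.025).

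Of 21 heat shock and unfolded protein response genes, 7 rose and 3 fell (33.3% higher and 14.3% lower, beside 8.93% higher and 7.73% lower of all genes, list median 0.19). After scaling to equal medians 10 rose and 1 fell. The chaperones of the endoplasmic reticulum Pdia4 and Hsp90b1 rose by 0.69 and 0.59, each with a rise in SNL and a fall in sham rats. Hsph1, a cytosolic cochaperone of HSP70, averaged 1054 ± 62.9 in SNL ipsilateral and 1593 ± 118 in SNL contralateral DRGs, and 1711 ± 76.99 in sham ipsilateral and 1399 ± 85.04 in sham contralateral DRGs (SD, n = 5 each), and fell by 0.88 relative to sham surgery (adjusted p = 1.25e-08). The small heat shock protein Hspb1, which neurons raise after axon injury, had a contrast of 0.45 ± 0.07 (SE) (adjusted p = 4.05e-05). With the GAPDH covariate the calls among the genes that rose were lost, while 1 gene was called lower.

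Collagens and other matrix genes, made chiefly by fibroblasts and Schwann cells, were the list with the most calls in 1 direction. Of 40 measured, 23 rose, 57.5% beside 8.93% of all genes, with a list median of 0.46. The count was 24 after quantile normalization and 10 with the GAPDH covariate. In SNL rats 20 of the 40 were higher on the operated side, while in sham rats 13 were lower on that side. Between contralateral DRGs 26 of them were lower in SNL than in sham rats, and the part of that difference in the contrast was not tested.

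Col3a1, the chain of type III collagen, had signals of 2729.6, 2768, 2642, 2457 and 2425 in SNL ipsilateral DRGs, against 1167, 1149, 1252, 1201 and 1316 in SNL contralateral DRGs. Sham rats gave 1059, 1118, 1057, 1118 and 1180.3 in sham ipsilateral DRGs and 1106, 1285, 1267, 1146 and 1279.5 in sham contralateral DRGs. The SNL ipsilateral values were above all others, the other 3 groups overlapped, and the contrast was 1.22 ± 0.079 (SE) (adjusted p = 2.55e-11). For this gene the contralateral difference between cohorts was 0.0012 (adjusted p = 0.987). Col6a1, a chain of the microfibrillar type VI collagen, had signals of 253, 229, 250.2, 212 and 211 in SNL ipsilateral DRGs, against 122, 113, 119.6, 125 and 135 in SNL contralateral DRGs, and 124, 144, 149.7, 143 and 127 in sham ipsilateral DRGs and 197, 218, 215, 179.9 and 215 in sham contralateral DRGs. The SNL ipsilateral values overlapped the sham contralateral ones, and both stood above the other groups. The cohorts moved in opposite directions, 0.83 in SNL and -0.52 in sham rats, and the contrast was 1.35 ± 0.11 (SE) (adjusted p = 9.76e-10). Its partner chain Col6a2 had a contrast of 0.999 ± 0.15 (SE) (adjusted p = 2.62e-05). Basement membrane genes rose too, with 0.94 for Lamb2, 0.90 for Col18a1, 0.87 for Nid2 and 0.86 for Col4a1, while the chains of type I collagen had the smaller contrasts of 0.58 for Col1a1 and 0.35 for Col1a2.

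Among 22 matrix proteases, their inhibitors and TGF-beta targets, 8 rose and 1 fell (36.4% higher and 4.55% lower, list median 0.30), and 2 passed as higher with the GAPDH covariate. After quantile normalization 8 rose and the lower calls were lost, and after scaling to equal medians 10 rose and the lower calls were lost. Besides Ccn1 and Ccn2 these were Mmp2 (0.87, adjusted p = 0.000115), a gelatinase, Tgfbi (0.78, adjusted p = 2.45e-07), a secreted matrix protein induced by TGF-beta, Adamts1 (0.65, adjusted p = 0.000949), Ltbp1 (0.59, adjusted p = 0.000444), which holds latent TGF-beta in the matrix, Timp2 (0.46, adjusted p = 0.000684) and Plat (0.33, adjusted p = 0.00449), the tissue plasminogen activator. Timp3 fell (-0.42, adjusted p = 0.0038).

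Macrophages and dendritic cells use MHC class II molecules to show peptides to helper T cells. Of 15 genes of antigen presentation measured, 5 rose and 1 fell (33.3% higher and 6.67% lower, list median 0.22), on the deposited signals as after quantile normalization. On adding the GAPDH ratio as a covariate, 3 rose and 1 fell. RT1-Bb, the beta chain of a rat class II molecule, had signals of 124, 142, 112, 94.95 and 151 in SNL ipsilateral DRGs, against 23.5, 22.9, 24.01, 34.6 and 30.6 in SNL contralateral DRGs, and 59.5, 74.8, 58.9, 65.8 and 82.02 in sham ipsilateral DRGs and 57.3, 70.9, 52.3, 49.8 and 47.6 in sham contralateral DRGs. The SNL ipsilateral values were the highest and the SNL contralateral values the lowest of the 20, and the contrast was 1.47 ± 0.18 (SE) (adjusted p = 1.13e-06). Another, dimmer probeset was not called (-0.37, adjusted p = 0.451). Cd74, the invariant chain that escorts class II molecules, had signals of 789, 725, 767, 687 and 791 in SNL ipsilateral DRGs, against 333, 321, 344, 299 and 346 in SNL contralateral DRGs, and 378, 397, 404, 447 and 412 in sham ipsilateral DRGs and 427, 467, 409.5, 440.0 and 445 in sham contralateral DRGs, a contrast of 1.25 ± 0.083 (SE) (adjusted p = 3.72e-11). RT1-Db1 and RT1-Da rose by 0.89 and 0.85, and the lysosomal protease Ctss, which trims the invariant chain, by 0.75. The RT1 genes are a family of close paralogs, so the gene to which a probeset belongs is uncertain.

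B2m, the light chain of MHC class I, was the member that fell. It had signals of 2011, 2062, 2012, 1986 and 1768 in SNL ipsilateral DRGs, against 2796, 2632, 2741, 2408 and 2651 in SNL contralateral DRGs, and 3149, 3133, 3105, 3149.6 and 3278 in sham ipsilateral DRGs and 2003, 2432, 2215, 2191 and 2284 in sham contralateral DRGs. Its sham ipsilateral values were the highest of all 20, its SNL ipsilateral values were below all SNL contralateral values, and the contrast was -0.93 ± 0.075 (SE) (adjusted p = 1.41e-09). On quantile-normalized signals the contrast was smaller, -0.33 (adjusted p = 0.000235).

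Complement genes rose in 7 of 15 cases, with 1 that fell (46.7% higher and 6.67% lower, beside 8.93% higher and 7.73% lower of all genes, list median 0.60), and 1 rose with the GAPDH covariate. C3, the central component, had signals of 85.9, 84, 103, 88.2 and 91.6 in SNL ipsilateral DRGs, against 47.8, 45.3, 48.4, 28.8 and 34.3 in SNL contralateral DRGs, and 22.6, 25.7, 19.4, 22.8 and 28.3 in sham ipsilateral DRGs and 18.5, 22.8, 17.8, 30.9 and 23.2 in sham contralateral DRGs. Values of SNL ipsilateral DRGs were above all others, the sham sides overlapped, and the contrast was 0.87 ± 0.18 (SE) (adjusted p = 0.00126). C5ar1, the receptor of the chemoattractant C5a, rose by 0.86, the classical pathway proteases C1s and C1r by 0.77 and 0.71, and the C1q chains C1qb and C1qa by 0.75 and 0.60. Cd59b, which blocks the last step of complement attack on the cell's own membrane, fell (-0.82, adjusted p = 1.08e-07).

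Of 18 macrophage markers 4 rose (22.2% higher, beside 8.93% of all genes, list median 0.17), each with a side difference above 0 in SNL and below 0 in sham rats. The receptor of the macrophage growth factor CSF1, Csf1r, averaged 77.5 ± 14.6 in SNL ipsilateral and 45.1 ± 4.52 in SNL contralateral DRGs, and 45.2 ± 5.90 in sham ipsilateral and 55.4 ± 11.3 in sham contralateral DRGs (SD, n = 5 each), a contrast of 0.82 ± 0.17 (SE) (adjusted p = 0.00155). Adgre1, the F4/80 antigen, had a contrast of 0.82 ± 0.14 (SE) (adjusted p = 0.000213). Aif1 and Mrc1, markers of activated and of perivascular macrophages, had sham side differences of -0.45 and -0.47 that passed the test and SNL side differences of 0.20 and 0.077 that did not. The summed signal of the list was 2208 to 2651 in SNL ipsilateral, 2097 to 2298 in SNL contralateral, 2224 to 2554 in sham ipsilateral and 2277 to 2594 in sham contralateral DRGs, a contrast of 0.20 on the log2 scale. With the GAPDH covariate the calls of these 4 genes were lost, with adjusted p of 0.0509 to 0.739. Of 20 interferon-stimulated genes 3 rose and 1 fell (15% higher and 5.00% lower, beside 8.93% higher and 7.73% lower of all genes, list median 0.14), with 0.70 for Usp18, which removes the ubiquitin-like ISG15, and 0.57 for Ifitm3, an antiviral membrane protein. In the fit with the GAPDH covariate 1 rose and 1 fell, and after quantile normalization 2 rose and the lower calls were lost. Ifi27 fell, by 0.39, and its contrast was 0.013 after quantile normalization.

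The 4 largest negative contrasts among the named genes belonged to genes of neutrophils and their marrow precursors, each with its highest level in contralateral SNL DRGs. S100a8, the small subunit of the calprotectin heterodimer, had signals of 38.9, 34.2, 28.05, 30.1 and 42.2 in SNL ipsilateral DRGs, against 548, 549, 605, 557 and 556 in SNL contralateral DRGs, and 169, 124, 138, 146 and 130.2 in sham ipsilateral DRGs and 187, 185, 184, 195 and 194 in sham contralateral DRGs. All 5 SNL contralateral values were above the sham values and all 5 SNL ipsilateral values below them, and the contrast was -3.13 ± 0.12 (SE) (adjusted p = 1.47e-16). Its partner S100a9 had signals of 20.8, 38.4, 64.7, 67.2 and 54.4 in SNL ipsilateral DRGs, against 231, 221, 241, 270.4 and 228 in SNL contralateral DRGs, and 60.4, 40.4, 53.9, 55.6 and 53.1 in sham ipsilateral DRGs and 53.8, 64.5, 72.9, 75.7 and 56.5 in sham contralateral DRGs. There the SNL ipsilateral values overlapped those of both sham groups, and the contrast was -1.79 ± 0.22 (SE) (adjusted p = 1.58e-06).

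The defensin RatNP-3b, an antimicrobial peptide of azurophil granules, had signals of 43.4, 39.6, 39.97, 39.02 and 36.4 in SNL ipsilateral DRGs, against 144, 165, 171, 171 and 147 in SNL contralateral DRGs, and 22.1, 28.6, 29.7, 24.9 and 28.3 in sham ipsilateral DRGs and 14.3, 18.4, 16.9, 19.9 and 19.3 in sham contralateral DRGs, a contrast of -1.99 ± 0.15 (SE) (adjusted p = 2.13e-10). Its SNL contralateral values were above all others, its SNL ipsilateral values above all sham values, and the sides moved in opposite directions in the cohorts. The related Np4 and Defa5 had contrasts of -1.51 ± 0.15 (SE) and -1.66 ± 0.29 (SE), and since these are near-identical family members, the division of signal among them is uncertain. Camp, the cathelicidin of specific granules, fell by 0.98 (adjusted p = 0.000368). Of 13 members of the list measured 6 fell (46.2% lower, list median -0.65), and 4 fell with the GAPDH covariate. The summed signal was 379 to 485 in SNL ipsilateral and 1406 to 1594 in SNL contralateral DRGs, against 427 to 459.5 in sham ipsilateral and 435 to 473 in sham contralateral DRGs. Mmp8, Mmp9, Csf3r and Pglyrp1, made by mature neutrophils, had group means of 1.88 to 22.4.

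Hbb, the beta chain of hemoglobin and thus a marker of red blood cells, showed another pattern, with a low level in ipsilateral SNL DRGs alone. Its signals were 1029, 971, 1057, 800.2 and 884 in SNL ipsilateral DRGs, against 2155, 1962, 2288, 2058 and 2238 in SNL contralateral DRGs, and 2168, 2289, 2296, 2186 and 2343 in sham ipsilateral DRGs and 1745, 2471, 2229, 2153 and 2412 in sham contralateral DRGs. The 5 SNL ipsilateral values were below the other 15, which overlapped, and the contrast was -1.21 ± 0.11 (SE) (adjusted p = 1.08e-08). It was -0.36 after quantile normalization (adjusted p = 0.0143). Hbb belongs to a family of close paralogs, so its share of the signal is uncertain. The other 7 red blood cell genes measured did not pass. The part of blood left in the ganglia in the contrasts of the immune genes above was not tested.

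Sensory neurons release glutamate and peptides from vesicles, and of 30 genes for transmitter release 10 fell (3.33% higher, list median -0.23), 33.3% beside 7.73% of all genes, and 1 rose, with 6 and 2 after quantile normalization and 6 and 1 with the GAPDH covariate. Vamp2, the vesicle SNARE of synaptic vesicles, had signals of 113, 123, 77.6, 155 and 128 in SNL ipsilateral DRGs, against 399, 417, 431, 428 and 431 in SNL contralateral DRGs, and 379.7, 405, 326, 359 and 313 in sham ipsilateral DRGs and 419, 375, 389, 409 and 384 in sham contralateral DRGs. All 5 SNL ipsilateral values were below the others by a wide margin, the contralateral DRGs of the cohorts overlapped, and the contrast was -1.57 ± 0.14 (SE) (adjusted p = 1.2e-08). A dimmer probeset of Vamp2 was not called (0.08, adjusted p = 0.854). Slc17a7, the vesicular glutamate transporter VGLUT1 that marks proprioceptors and low-threshold mechanoreceptors in the DRG, had signals of 109, 68.97, 44.9, 55.4 and 94.5 in SNL ipsilateral DRGs, against 215, 196, 206, 224 and 196 in SNL contralateral DRGs, and 164, 159, 167, 156 and 159 in sham ipsilateral DRGs and 166, 157, 175, 186 and 193 in sham contralateral DRGs. Its SNL ipsilateral values too were below the other 15, with a contrast of -1.24 ± 0.18 (SE) (adjusted p = 1.77e-05). That call was lost with the GAPDH covariate (adjusted p = 0.215), and a dimmer probeset of Slc17a7 was not called (0.31, adjusted p = 0.423).

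Snap25, the SNARE of the presynaptic membrane, fell relative to sham surgery in another way. It averaged 3954 ± 352 in SNL ipsilateral and 3864 ± 71.5 in SNL contralateral DRGs, and 3849 ± 234 in sham ipsilateral and 2269 ± 232 in sham contralateral DRGs (SD, n = 5 each), so that it was high on both sides of SNL rats and lower in sham contralateral DRGs, and the contrast was -0.73 ± 0.089 (SE) (adjusted p = 1.33e-06). In the cytoskeleton list 16 of 31 fell on the deposited signals (51.6% lower, list median -0.28), but after quantile normalization 6 rose and 7 fell, so the direction of this list depends on the scaling. Holding the GAPDH ratio as a covariate, 10 fell, and after scaling to equal medians 2 rose and 8 fell. In sham rats 18 of its members were higher on the operated side and in SNL rats 12. Map1b (-0.69, adjusted p = 1.23e-06), Sptbn1 (-0.63, adjusted p = 4.84e-07) and Dpysl2 (-0.54, adjusted p = 0.000117), which encode a microtubule-associated protein, a spectrin and the tubulin-binding protein CRMP2, kept their call after quantile normalization, and Mapt, the protein tau (-0.54, adjusted p = 2.02e-05), did not. The probesets of Map1b differed in size, with another that passed at -2.60 (adjusted p = 5.91e-18) and a further probeset that did not (-0.16, adjusted p = 0.379). No other probeset of Sptbn1 was called.

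Nociceptors, the neurons of pain, are defined by a set of channels and receptors, of which 6 of 28 fell and 2 rose (7.14% higher and 21.4% lower, beside 8.93% higher and 7.73% lower of all genes, list median -0.15). Once the GAPDH ratio entered the fit, 3 fell and the higher calls were lost. P2rx3, the ATP-gated channel of nonpeptidergic nociceptors, had signals of 539, 567, 550.5, 543 and 543 in SNL ipsilateral DRGs, against 1157, 1071, 1132, 1019 and 1107 in SNL contralateral DRGs, and 996, 1108, 1078, 1096 and 1009.8 in sham ipsilateral DRGs and 927, 999, 968, 1002 and 967 in sham contralateral DRGs. The 5 SNL ipsilateral values did not overlap with the other 15 and lay below them, and the contrast was -1.10 ± 0.067 (SE) (adjusted p = 1.14e-11), -0.78 after quantile normalization. A dimmer probeset of P2rx3 gave 0.078 (adjusted p = 0.833), so the probesets of this gene disagree. Ret, the receptor kinase through which GDNF acts on the same neurons, had signals of 958, 917, 928, 1009 and 971 in SNL ipsilateral DRGs, against 1464, 1346, 1292, 1355 and 1338 in SNL contralateral DRGs, and 1569, 1545, 1586, 1585 and 1475 in sham ipsilateral DRGs and 1197, 1120.5, 1091, 1058 and 1027 in sham contralateral DRGs. Its SNL ipsilateral values were below and its sham ipsilateral values above all others. It fell on the operated side of SNL rats, by 0.50, and rose on that side of sham rats, by 0.49, and the contrast was -0.99 ± 0.069 (SE) (adjusted p = 1.06e-10). Its 2 other probesets were not called. The serotonin-gated channel subunits Htr3a (-0.69, adjusted p = 0.0133) and Htr3b (-0.55, adjusted p = 0.00145), the sodium channel Scn9a (-0.49, adjusted p = 0.000294) and the GDNF family receptor Gfra2 (-0.41, adjusted p = 0.0283) fell as well. The capsaicin receptor Trpv1 had a contrast of 0.27 and the sodium channel Scn10a of 0.32, and the number that rose ranged from 0 to 2 with 1 array left out. With the rat as a block 7 fell and the calls of Trpv1 and Scn10a were lost.

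Of 23 sodium, calcium and HCN channel subunits 4 fell and 1 rose (4.35% higher and 17.4% lower, list median -0.15). When the GAPDH ratio was a covariate, 1 rose and 2 fell. Scn4b, a sodium channel beta subunit of large fast-firing neurons, averaged 675 ± 53.2 in SNL ipsilateral and 1281 ± 77.2 in SNL contralateral DRGs, and 1056 ± 53.1 in sham ipsilateral and 993 ± 71.03 in sham contralateral DRGs (SD, n = 5 each), and had a contrast of -0.999 ± 0.086 (SE) (adjusted p = 3.92e-09). Scn2b and Cacna2d3, auxiliary subunits of sodium and calcium channels, had contrasts of -0.66 and -0.42, and the calcium channel subunit Cacnb3 rose by 0.65 (adjusted p = 4.78e-06). Of 35 potassium channel subunits 4 fell and 2 rose (5.71% higher and 11.4% lower, beside 8.93% higher and 7.73% lower of all genes, list median -0.061), and the count that rose ranged from 1 to 3 with 1 array left out. On adding the GAPDH ratio as a covariate, 3 fell and the higher calls were lost, and after scaling to equal medians 4 rose and 3 fell. With the rat as a block 1 rose and 5 fell. Kcnip4, an auxiliary subunit of A-type channels, fell by 0.76 (adjusted p = 2.1e-06) and Kcnab1 by 0.74 (adjusted p = 0.00129). Of 24 genes of GABA and glutamate receptors 2 fell (8.33% lower, beside 7.73% of all genes, list median -0.050). These were the GABA receptor subunits Gabra2 and Gabbr2, by 0.46 and 0.32. Gabbr2 lost its call after quantile normalization, and with the GAPDH covariate the calls of this list were lost.

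Genes that axotomized sensory neurons switch on changed in either direction. Of 38 measured 6 rose and 5 fell (15.8% higher and 13.2% lower, beside 8.93% higher and 7.73% lower of all genes, list median 0.053), against 14 that were higher on the operated side in SNL rats and 8 in sham rats. In the fit with the GAPDH covariate 1 rose and 2 fell, after quantile normalization 4 rose and 3 fell, and after scaling to equal medians 8 rose and 1 fell. Sox11, a factor of axon growth, averaged 219 ± 24.2 in SNL ipsilateral and 102 ± 10.1 in SNL contralateral DRGs, and 113 ± 27.5 in sham ipsilateral and 95.4 ± 20.1 in sham contralateral DRGs (SD, n = 5 each), a contrast of 0.78 ± 0.17 (SE) (adjusted p = 0.00255). Adcyap1, the precursor of the peptide PACAP, had a contrast of 0.73 ± 0.12 (SE) (adjusted p = 0.000102) and the peptide Gal, galanin, of 0.67 ± 0.20 (SE) (adjusted p = 0.0243), a call lost without the SNL contralateral array of rat 4 or 9. Npy and Vip, peptides that injured neurons start to make, were higher on the operated side in both cohorts. Npy had mean signals of 132 in SNL ipsilateral and 47.01 in SNL contralateral DRGs, and 132 in sham ipsilateral and 29.2 in sham contralateral DRGs, a contrast of -0.48 ± 0.14 (SE) (adjusted p = 0.0196) that was -0.084 after quantile normalization (adjusted p = 0.774). For Vip the contrast was 0.000288 ± 0.21 (SE), with a side difference of 1.09 in SNL and 1.09 in sham rats.

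Of 24 neuropeptide genes 5 fell and 2 rose, 4 without the SNL contralateral array of rat 18 and 1 without that of rat 4 or 9 (8.33% higher and 20.8% lower, beside 8.93% higher and 7.73% lower of all genes, list median -0.13). Holding the GAPDH ratio as a covariate, 1 rose and 2 fell, after quantile normalization 3 rose and 3 fell, and after scaling to equal medians 4 rose and 4 fell. Tac1, the precursor of substance P, averaged 464 ± 80.6 in SNL ipsilateral and 823 ± 37.8 in SNL contralateral DRGs, and 707 ± 40.7 in sham ipsilateral and 762 ± 38.7 in sham contralateral DRGs (SD, n = 5 each), and fell by 0.71 relative to sham surgery (adjusted p = 3.31e-05). Calcb, the beta form of CGRP, fell by 0.49 (adjusted p = 0.000376) and Sst, somatostatin, by 0.38 (adjusted p = 0.0439), while Calca, the alpha form of CGRP, had a contrast of -0.11 ± 0.085 (SE) (adjusted p = 0.439).

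Transcription factors that set the identity of sensory neuron types fell in 8 of 20 cases (5.00% higher, list median -0.28), 40% beside 7.73% of all genes, and also in 8 after quantile normalization, and in 3 with the GAPDH covariate. After scaling to equal medians 1 rose and 5 fell. Maf, a factor of rapidly adapting mechanoreceptors, had signals of 516, 506, 499.7, 499 and 516 in SNL ipsilateral DRGs, against 876, 980.0, 838, 862 and 959 in SNL contralateral DRGs, and 784, 722, 796, 770.4 and 678 in sham ipsilateral DRGs and 711, 648, 657, 608 and 620.0 in sham contralateral DRGs. Maf was lowest in all SNL ipsilateral and highest in all SNL contralateral DRGs, and the contrast was -1.01 ± 0.08 (SE) (adjusted p = 9.3e-10). Its 2 other probesets were not called. Sox4 (-0.80, adjusted p = 2.57e-05), Isl2 (-0.60, adjusted p = 2.83e-05), Cux2 (-0.53, adjusted p = 0.0166), Drgx (-0.50, adjusted p = 0.000113), which nociceptors need, and Etv1 (-0.47, adjusted p = 0.000207), which proprioceptors need, fell too. Sox4 is measured by 7 probesets, of which 3 passed, all as lower.

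In the list of neurotrophins and their receptors 6 of 24 fell and 1 rose (4.17% higher and 25% lower, list median -0.044). Once the GAPDH ratio entered the fit, 3 fell and the higher calls were lost. Ntrk3, the TrkC receptor of proprioceptors, had signals of 148, 172, 233, 179 and 174 in SNL ipsilateral DRGs, against 122, 157, 143, 136 and 146 in SNL contralateral DRGs, and 94.6, 119, 85.99, 85.7 and 98.2 in sham ipsilateral DRGs and 148, 154, 152, 162 and 151 in sham contralateral DRGs. Its sham ipsilateral values were below all others, the SNL sides overlapped in part, and the contrast was 0.92 ± 0.14 (SE) (adjusted p = 2.35e-05), with a sham side difference of -0.60. Ngfr, the p75 receptor, fell by 0.50 and Cntfr, the receptor of ciliary neurotrophic factor, by 0.74. Of 36 regulators of neurite growth 9 fell and 1 rose (2.78% higher and 25% lower, beside 8.93% higher and 7.73% lower of all genes, list median 0.039), with -0.77 for Rtn4, the source of Nogo-A, and -0.57 for Pak1, a kinase of the actin cytoskeleton, among those that fell. When the GAPDH ratio was a covariate, 3 fell and the higher calls were lost, after quantile normalization 2 rose and 8 fell, and after scaling to equal medians 2 rose and 4 fell. With the rat as a block 2 rose and 9 fell. Srf, whose promoter is shown above, was the member that rose, by 0.73 (adjusted p = 0.00158).

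Glial genes moved in both directions. Of 18 peripheral myelin genes 5 rose and 5 fell (27.8% higher and 27.8% lower, list median 0.10), and 2 fell after quantile normalization. On adding the GAPDH ratio as a covariate, 1 rose and 6 fell. Ugt8, the enzyme that makes galactocerebroside for the myelin sheath, had signals of 129, 138, 128, 141 and 180.0 in SNL ipsilateral DRGs, against 404, 464, 415, 447 and 376 in SNL contralateral DRGs, and 282, 283, 292, 272 and 216 in sham ipsilateral DRGs and 391, 248, 251, 263 and 234 in sham contralateral DRGs. The SNL ipsilateral values were below all others, and the contrast was -1.44 ± 0.15 (SE) (adjusted p = 1.68e-07, 0.0498 with the GAPDH covariate). Mbp and Cnp, proteins of compact and of uncompacted myelin, fell by 0.53 and 0.54, whereas Egr2, Drp2 (0.69, adjusted p = 2.54e-05) and Prx (0.55, adjusted p = 4.42e-05) rose, of which Drp2 and Prx form a complex that links the Schwann cell membrane to its cytoskeleton. Drp2 and Prx were lower on the operated side of sham rats, by 0.51 and 0.29. Of 15 satellite glial genes 4 fell, 2 without the sham contralateral array of rat 14, and 1 rose (6.67% higher and 26.7% lower, list median -0.11). In the fit with the GAPDH covariate 3 fell and the higher calls were lost, after quantile normalization 2 rose and 2 fell, and after scaling to equal medians 1 rose and 2 fell. Gja1, the gap junction protein connexin 43, fell by 0.60 (adjusted p = 1.73e-06), and Glul, glutamine synthetase, by 0.37 (adjusted p = 0.0259), a call lost when any of 4 single arrays was left out.

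Lists of bright housekeeping genes depended on the scaling. Among oxidative phosphorylation genes 5 rose and 9 fell of 49 (10.2% higher and 18.4% lower, beside 8.93% higher and 7.73% lower of all genes, list median -0.052), but 11 and 1 after quantile normalization. Holding the GAPDH ratio as a covariate, 1 rose and 8 fell, and after scaling to equal medians 8 rose and 5 fell. Among cytosolic ribosomal protein genes 3 rose, 5 without the SNL ipsilateral array of rat 48, and 3 fell of 29 (10.3% higher and 10.3% lower, near the 8.93% higher and 7.73% lower of all genes, list median -0.052), and 14 and 1 after quantile normalization. Once the GAPDH ratio entered the fit, 3 fell and the higher calls were lost, and after scaling to equal medians 5 rose and 1 fell. Among proteasome subunits 4 rose and 8 fell of 30 (13.3% higher and 26.7% lower, list median 0.039), and 7 and 6 after quantile normalization. When the GAPDH ratio was a covariate, 6 fell and the higher calls were lost, and after scaling to equal medians 5 rose and 5 fell. The core subunits Psmb7 (-0.75, adjusted p = 3.5e-08), Psmb4 (-0.74, adjusted p = 7.99e-09) and Psma2 (-0.69, adjusted p = 2.28e-06) fell also after quantile normalization and with the GAPDH covariate, and the complex I subunit Ndufa6 (0.85, adjusted p = 1.03e-06) rose in these fits as well. Of the lysosomal genes, 7 rose and 5 fell of 28 (25% higher and 17.9% lower, list median 0.03), and the number that fell ranged from 3 to 6 with 1 array left out, with 0.74 for Glb1 and 0.54 for Ctsh. On adding the GAPDH ratio as a covariate, 2 rose and 1 fell, after quantile normalization 6 rose and 2 fell, and after scaling to equal medians 8 rose and 3 fell. In cholesterol and fatty acid synthesis 4 rose and 5 fell of 24 (16.7% higher and 20.8% lower, list median 0.11). In the fit with the GAPDH covariate 1 rose and 2 fell, and after scaling to equal medians 7 rose and 5 fell. Srebf2, the factor that switches on cholesterol synthesis, averaged 209 ± 15.9 in SNL ipsilateral and 460.3 ± 26.5 in SNL contralateral DRGs, and 314 ± 31.9 in sham ipsilateral and 362 ± 40.2 in sham contralateral DRGs (SD, n = 5 each), a contrast of -0.89 ± 0.11 (SE) (adjusted p = 1.22e-06), and Acly and Elovl6, enzymes of fatty acid synthesis and elongation, fell by 0.77 and 0.62. Dimmer probesets of Srebf2 (-0.33, adjusted p = 0.525) and Elovl6 (0.42, adjusted p = 0.186) were not called. Among RNA splicing and binding genes 1 rose and 8 fell of 26 (3.85% higher and 30.8% lower, beside 8.93% higher and 7.73% lower of all genes, list median -0.19), with -0.80 for Ptbp2, a neuronal splicing repressor, and -0.56 for Hnrnph1. Holding the GAPDH ratio as a covariate, 1 fell and the higher calls were lost, after quantile normalization 7 fell and the higher calls were lost, and after scaling to equal medians 2 rose and 4 fell. The number that rose ranged from 0 to 2 with 1 array left out. Among genes of microRNA processing and silencing 2 rose and 2 fell of 26 (7.69% higher and 7.69% lower, beside 8.93% higher and 7.73% lower of all genes, list median -0.052), each 2 to 4 with 1 array left out, with -0.73 for Ddx6, a helicase of silencing complexes, and 0.62 for Xpo5, the exporter of microRNA precursors. Other probesets were not called, at 0.0054 (adjusted p = 0.983) and -0.31 (adjusted p = 0.243) for Ddx6 and 0.046 (adjusted p = 0.931) for Xpo5. Once the GAPDH ratio entered the fit, 3 fell and the higher calls were lost, after quantile normalization 3 rose and 5 fell, and after scaling to equal medians 5 rose and 2 fell.

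A dissected ganglion could hold other cells, whose marker lists had shares of calls at, below or above the 8.93% higher and 7.73% lower of all genes. Of 15 pericyte and smooth muscle genes 3 rose and 1 fell (20% higher and 6.67% lower), and the number that rose was 1 without the sham contralateral array of rat 14, 17 or 23 or the sham ipsilateral array of rat 14. Of 17 adipocyte genes 2 rose and 1 fell (11.8% higher and 5.88% lower), and of 18 endothelial genes 2 rose and 1 fell (11.1% higher and 5.56% lower). With the GAPDH covariate the calls of these lists were lost. Lymphocyte, bone and cartilage, meningeal, and central neuron and oligodendrocyte lists had 1 gene each that rose, of 13 to 14 measured. With the GAPDH covariate only the central neuron and oligodendrocyte list kept a higher call, while 1 gene each fell in the lymphocyte and the bone and cartilage lists. Of 25 skeletal muscle genes 2 rose, Myh1, a myosin of fast fibres, at 0.48 ± 0.067 (SE) (adjusted p = 1.1e-05), and Myl11, whose call was lost when any of 4 single arrays was left out. In the fit with the GAPDH covariate 1 gene of this list rose. The summed muscle signal was 3758 to 4107 in SNL ipsilateral, 2535 to 2667 in SNL contralateral, 1937 to 2009 in sham ipsilateral and 1731 to 1833 in sham contralateral DRGs, a contrast of 0.44 on the log2 scale. On that scale the summed signal had a contrast of 0.076 for endothelium, 0.19 for pericytes and smooth muscle, 0.039 for adipocytes, 0.19 for meninges, -0.021 for bone and cartilage, 0.44 for central neurons and oligodendrocytes, and -0.24 for lymphocytes. The list median of the contrast was -0.18 for central neurons and oligodendrocytes and 0.0041 for lymphocytes. Summed markers of the ganglion's own cells had contrasts of -0.34 for neurons, -0.29 for satellite glia and -0.16 for Schwann cells. A sum follows its brightest members. In SNL ipsilateral DRGs Pmp22 averaged 8742, where the summed Schwann cell markers averaged 11617. The part of the cells of these lists in the contrasts above was not tested. Of 26 genes of the BCL2 family and caspases 1 fell, Bcl2l2 (-0.32, adjusted p = 0.0121), which opposes cell death, and of 27 proliferation genes 1 rose and 2 fell (3.70% higher and 7.41% lower, beside 8.93% higher and 7.73% lower of all genes, list median 0.023). When the GAPDH ratio was a covariate, the calls of both lists were lost. Among the proliferation genes, after quantile normalization 1 rose and the lower calls were lost, and after scaling to equal medians 1 rose and 1 fell. The number that fell ranged from 1 to 3 with 1 array left out.

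**Figure D4:**
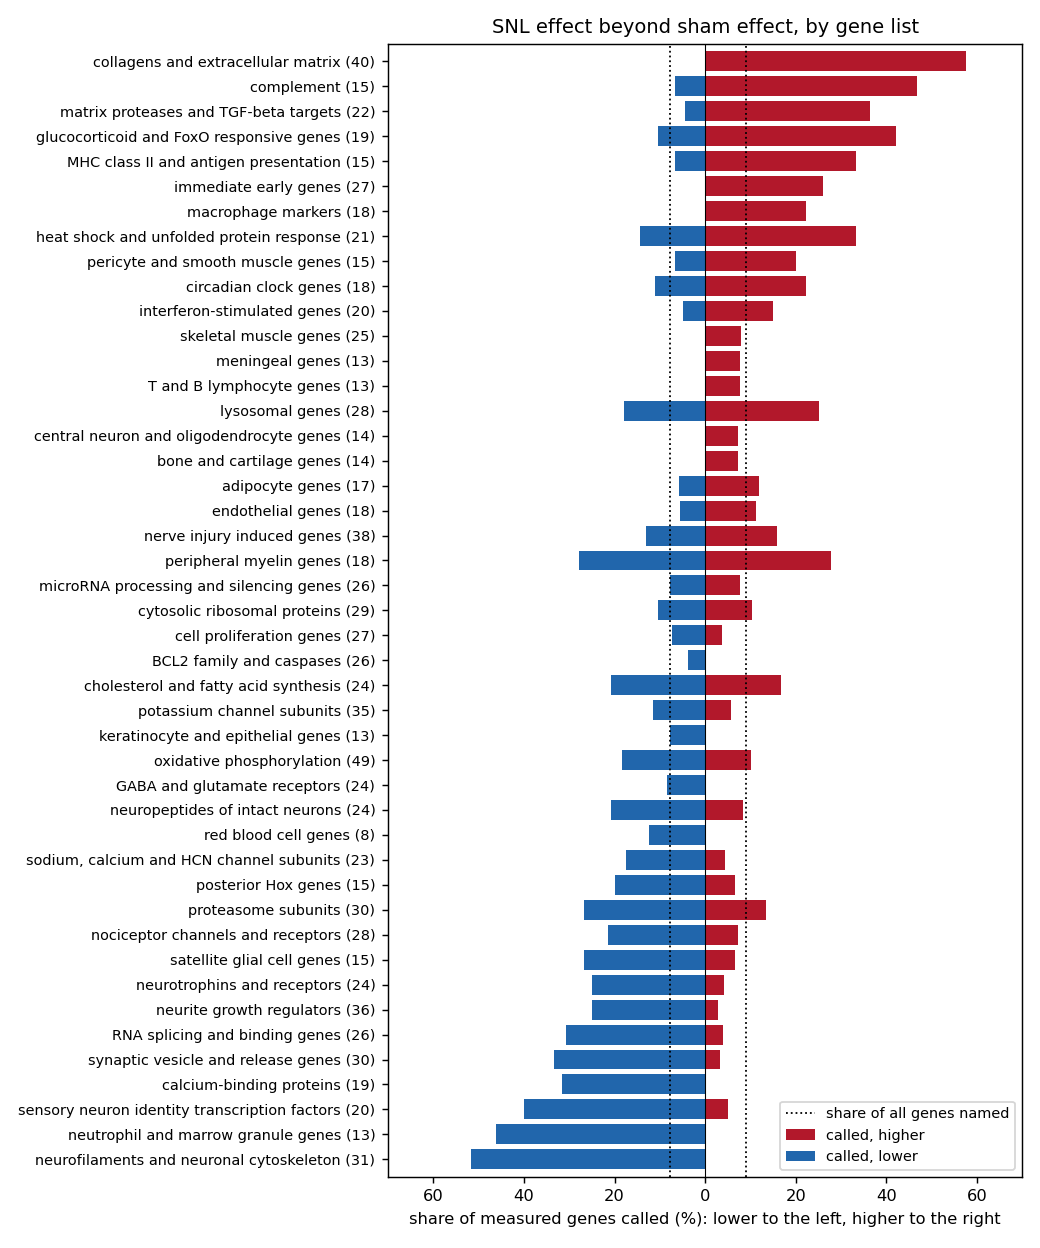
Share of the measured genes of each list called higher (to the right) or lower (to the left) in the contrast, in percent, with dotted lines at the shares of all genes, 8.93% higher and 7.73% lower. Collagens and extracellular matrix reach 57.5% higher and neurofilaments and neuronal cytoskeleton 51.6% lower, where quantile normalization gives 6 genes higher and 7 lower.

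In some of the largest contrasts the change lay in sham rats. Myod1, the master factor of muscle differentiation, had signals of 33.9, 24.4, 63.97, 21.7 and 48.9 in SNL ipsilateral DRGs, against 25.8, 28.5, 22.4, 30.8 and 32.1 in SNL contralateral DRGs, and 54.7, 56.9, 70.5, 62.3 and 70.2 in sham ipsilateral DRGs and 6.95, 2.92, 6.65, 12.4 and 8.47 in sham contralateral DRGs. Sham contralateral values were below all others, the SNL sides overlapped, and the contrast of -1.498 ± 0.24 (SE) (adjusted p = 5.7e-05) came with a sham side difference of 1.76. Nars2, the mitochondrial asparaginyl-tRNA synthetase, had signals of 315, 269.8, 307, 278 and 322 in SNL ipsilateral DRGs, against 289, 344, 319, 316 and 334 in SNL contralateral DRGs, and 264, 233, 311, 245 and 287 in sham ipsilateral DRGs and 94.6, 84.6, 91.2, 93.9 and 87.9 in sham contralateral DRGs. It too was low in sham contralateral DRGs alone, with a sham side difference of 1.41 and a contrast of -1.51 ± 0.11 (SE) (adjusted p = 1.12e-10). Tnfrsf21, the death receptor DR6, showed the other case, with signals of 114, 104, 96.5, 95.4 and 122 in SNL ipsilateral DRGs, against 365, 372, 391, 422 and 366 in SNL contralateral DRGs, and 361, 382, 355, 365 and 342 in sham ipsilateral DRGs and 444, 459, 453, 436 and 434 in sham contralateral DRGs. Here SNL ipsilateral values were below all others, and the contrast was -1.42 ± 0.09 (SE) (adjusted p = 2e-11), and another probeset of the gene passed too (-1.05, adjusted p = 0.000499).

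The remaining genes with the largest contrasts belonged to no list. Slc3a1, a subunit of a cystine transporter, averaged 57.2 ± 16.5 in SNL ipsilateral and 198 ± 26.9 in SNL contralateral DRGs, and 216 ± 16.2 in sham ipsilateral and 251.6 ± 18.5 in sham contralateral DRGs (SD, n = 5 each), a contrast of -1.36 ± 0.16 (SE) (adjusted p = 1.03e-06). Swap70, which binds actin and phosphoinositides, had a contrast of 1.23 ± 0.19 (SE) (adjusted p = 3.45e-05), with a side difference of 0.68 in SNL and -0.55 in sham rats. Cfap100, a protein of cilia, and Cdca7, a target of MYC, had contrasts of 1.43 ± 0.27 (SE) and 1.36 ± 0.27 (SE), and the pseudogene Actr2-ps1 of -1.36 ± 0.21 (SE).

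Cacna2d1, Scn11a and P2rx4, ion channel genes studied for their part in neuropathic pain, did not pass. Cacna2d1, the alpha-2-delta subunit that binds gabapentin, had signals of 68.02, 80.4, 88.4, 63.7 and 66.8 in SNL ipsilateral DRGs, against 145, 136, 157, 137 and 147 in SNL contralateral DRGs, and 79.7, 94.6, 64.2, 59.98 and 62.6 in sham ipsilateral DRGs and 114, 122, 124, 115 and 132 in sham contralateral DRGs. It was lower on the operated side in all rats of both cohorts, by 0.85 in SNL and 0.65 in sham rats, and the contrast was -0.19 ± 0.14 (SE) (adjusted p = 0.426, exact permutation p = 0.19). After quantile normalization it was -0.53 and passed (adjusted p = 0.0175). Scn11a encodes the Nav1.9 channel of nociceptors and had a contrast of -0.16 ± 0.10 (SE) (limma, adjusted p = 0.312) and turned to 0.18 after quantile normalization (adjusted p = 0.314). The contrast of P2rx4, an ATP-gated channel of microglia and macrophages, was -0.14 ± 0.19 (SE) (adjusted p = 0.719), and its group means lay between 45.5 and 53.1.

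**Figure D5:**
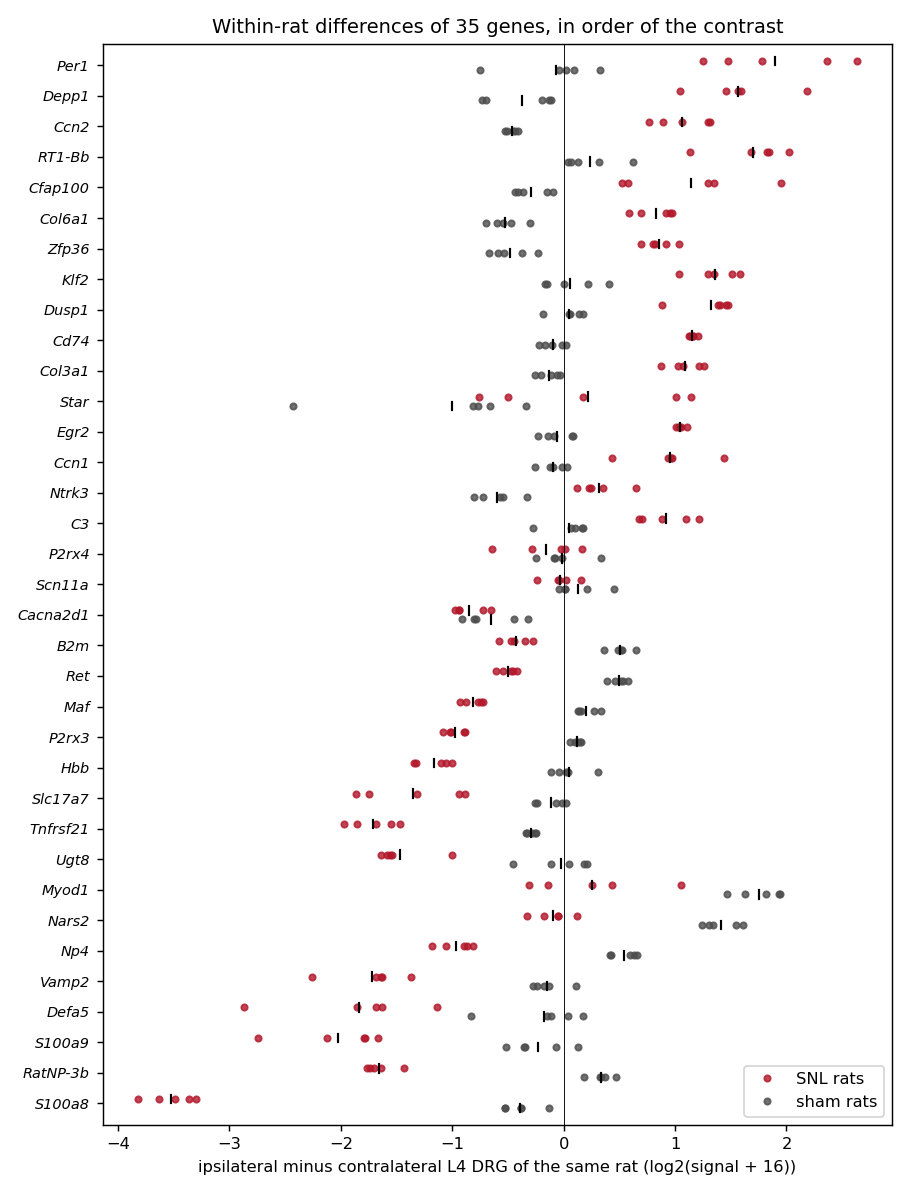
Ipsilateral minus contralateral difference within each rat, log2(signal + 16), for 35 genes in order of the contrast, with SNL rats above sham rats in each row; black ticks are cohort means. S100a8 spans -3.82 to -3.30 in SNL rats, against -0.52 to -0.13 in sham rats.

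The same contrast in the L5 DRG, whose own nerve was tied, was set beside that of L4 in a fit of all 40 arrays, in which 18.1% of probesets had contrasts that differed between the ganglia. Of the 24 genes with the largest L4 contrasts, 22 had an L5 contrast in the same direction that passed the test, and for 10 the ganglia differed. The share of all genes with such an L5 contrast was not counted, so the 22 have no background beside them. Depp1 and RT1-Bb were higher at L4, with contrasts of 1.94 at L4 and -0.25 at L5 for Depp1 (difference 2.19 ± 0.28 (SE), adjusted p = 5.06e-08) and 1.47 at L4 and -0.29 at L5 for RT1-Bb (adjusted p of the difference = 3.03e-07). Dusp1 had 1.27 at L4 and 0.59 at L5 (adjusted p of the difference = 0.00146). Larger contrasts at L5 were found in 1.25 at L4 and 2.76 at L5 for Cd74, 1.35 at L4 and 2.97 at L5 for Col6a1 and 0.87 at L4 and 2.61 at L5 for C3, each with a difference that passed the test. For Scn11a the contrast was -0.16 at L4 and -3.28 at L5, and for Cacna2d1 -0.19 at L4 and 1.17 at L5, and these differences passed too. Differences were not called for 1.97 at L4 and 1.43 at L5 for Per1, 1.53 at L4 and 1.41 at L5 for Ccn2, -1.10 at L4 and -1.19 at L5 for P2rx3 and -0.99 at L4 and -1.06 at L5 for Ret, where the difference was 0.54 ± 0.39, 0.12 ± 0.14, 0.10 ± 0.10 and 0.063 ± 0.12 (SE) in this order. A difference not called does not show that the ganglia were alike. The ganglia came from the same rats, which this fit did not use. The array names of the SNL L5 DRGs carry another prefix than those of all other DRGs, and their array numbers repeat those of the SNL L4 DRGs. The part of this in the differences between the ganglia was not tested.

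Of the 159 genes named or considered by the naming rule, 59 had further probesets. In 14 of them another probeset passed in the same direction, in 2 (Pdgfrb and Mapt) another passed in the opposite direction, and in 43 no further probeset passed. Of the 156 that passed, 138 kept their call whichever single array was left out, 124 passed after quantile normalization and 66 with the GAPDH covariate.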

How the data were processed

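Whole-ganglion RNA of individual DRGs was hybridised to Affymetrix rat expression arrays. The deposited values are linear signal intensities, which the authors made with MAS 5, and their trimmed mean is close to equal over the arrays. The release of MAS 5 was not given in the sources used here. Depth does not apply to arrays, whose number limits the precision. Nothing states that rats were pooled, and p-values measure the spread between rats.

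Of 31099 probesets, 57 controls were left out. The platform table gave 1 symbol to 20826 probesets, several to 436 and none to 9780, and 20758 symbols were updated by gene ID. Genes are shown by their brightest probeset over all 40 arrays, and never by a probeset with several symbols.

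Log2(signal + 16) of the 20 L4 arrays was fitted with group means in limma 3.58.1 (R 4.3.3), with eBayes and an intensity trend, and contrasts were adjusted by the Benjamini-Hochberg method over 31042 probesets. The script was tested on simulated data first. Single genes were also tested by an exact permutation of the 10 within-rat differences (252 splits), in Python 3.11.15 with numpy 2.4.6 and pandas 2.3.3. The members and the 45 gene lists were chosen with earlier results of these data known.

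Genes named are the 12 largest contrasts in each direction that were called, had a highest group mean above the median of all probesets and had within-rat differences that did not overlap between cohorts, up to 4 called members of each list by size, and Cacna2d1, Scn11a and P2rx4. The other list members named in the text were chosen after their values were seen.

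Both DRGs of a rat carry its number in the labels. After the group means were removed, the residuals of paired arrays had correlations of -0.010 to 0.040 in SNL and -0.047 to 0.095 in sham rats. Alternatives were quantile normalization, equal medians, offsets of 1 and 64, dim probesets left out, the GAPDH ratio as a covariate, the rat as a block, all 8 groups of the series, no intensity trend, the methods' t-test, a stricter threshold and each array left out. The comparison of L4 with L5 and the GAPDH covariate for gene lists were added after seeing the data. Promoter sequences came from RefSeq (GRCr8).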

Additional observations from a re-analysis of the deposited data

Results flagged for a closer look

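In 140 tests of the 5 samples of a group, 11 found a sample that stood apart from the other 4, where chance gives about 1 in 20 tests. Ccn2 had its highest sham contralateral signal in rat 1, at 227. Dusp1 had its lowest sham ipsilateral signal in rat 23, at 493. S100a8 was highest among SNL contralateral DRGs in rat 9, at 605. Ugt8 stood apart at the top of the SNL ipsilateral DRGs in rat 48, at 180.04, at the bottom of the sham ipsilateral DRGs in rat 23, at 216, and at the top of the sham contralateral DRGs in rat 1, at 391. Star, which carries cholesterol into mitochondria, was lowest in rat 23 among sham ipsilateral DRGs, at 5.64, and in rat 14 among sham contralateral DRGs, at 50.2. B2m had its lowest SNL ipsilateral signal in rat 48, at 1768, and its highest sham ipsilateral signal in rat 23, at 3278. Scn11a had its lowest sham contralateral signal in rat 1, at 977.

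For 6 of the genes with the largest contrasts the sides differed in opposite directions in SNL and in sham rats, each past the limma threshold. Higher in SNL ipsilateral DRGs and lower in sham ipsilateral DRGs than on the other side were Ccn2 (contrast 1.53), Col6a1 (1.35), Zfp36 (1.33) and Swap70 (1.23). Lower in SNL ipsilateral DRGs and higher in sham ipsilateral DRGs were the defensins RatNP-3b (-1.99) and Np4 (-1.51).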

How the results depend on the processing

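The array numbers follow the groups and the RNA measures differ between them, so every count is conditional on the scaling. With the GAPDH ratio as a covariate the contrast gave 981 calls (221 higher, 760 lower), against 4347, the side difference of SNL rats 216 and that of sham rats 1296; this fit has a covariate that lies close to the groups. At the methods' threshold of p under 0.001 their t-test gave 2360 (853 higher, 1507 lower), 4158 in SNL, 3096 in sham rats and 11313 between contralateral DRGs. At an adjusted p under 0.01 the counts were 2451 (906 higher, 1545 lower), 5036 and 3358. In sham rats equal medians gave 10485 calls and quantile normalization 3032, and with dim probesets left out 10433 of fewer probesets differed contralaterally. With the rat as a block the contrast gave 4301 calls, and 7 of 159 gene results lost their call, among them the clock gene Npas2 (adjusted p = 0.0512), as did Trpv1 and Scn10a. Leaving out 1 array gave 3631 to 4485 calls of the contrast (1452 to 1863 higher, 2179 to 2622 lower), 7217 to 8074 in SNL rats, 4566 to 6303 in sham rats and 16961 to 18599 between contralateral DRGs. Quantile normalization turned the contrasts of Ifi27 (0.0135) and Scn11a (0.18), the cause of which was not tested. Of 156 genes called, 66 kept their call with the GAPDH covariate and 124 after quantile normalization, where Cacna2d1 gained one. Of 159 gene results 32 lost their call at the stricter threshold, 10 with the t-test after Benjamini-Hochberg adjustment, 8 without the intensity trend, 7 with equal medians, 6 with offset 64 and 4 with offset 1. All 8 groups in 1 fit gave 6146 calls of the contrast and changed no gene's call. Of 90 list counts, 61 moved with the GAPDH covariate, 36 after quantile normalization, 30 with equal medians, 11 with the block and 33 when single arrays were left out.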
